A study of Mus musculus with 9 samples.

Results

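The hepatocyte identity transcription factors measured here were the FOXA pioneer factors Foxa1, Foxa2 and Foxa3, the C/EBP factors Cebpa and Cebpb, the ONECUT factor Onecut1 (HNF6), the homeobox factor Prox1 and the GATA factor Gata4. They were found by gene symbol in the deposited count table, where 8 of 55401 genes matched, and all 8 passed the filter on low counts with 15717 genes in all. RNA was sequenced from whole livers of 9 female mice in 3 groups of 3. Healthy livers came from wild-type mice that received no treatment. Mice were obtained at 6 weeks of age, and the age of healthy mice at harvest is not given in the sources used here. Mice with untreated HCC (hepatocellular carcinoma) received RAS/AKT oncogenes by hydrodynamic injection (plasmids pT3-EF1α-HA-myr-AKT and pT/Caggs-Nras-v12 with the sleeping beauty transposase plasmid pCMV-SB11), and a blank AAV8 (adeno-associated virus serotype 8) 1 week later. Mice with miR-22-treated HCC received the same oncogenes and AAV8-miR-22, and HCC livers of both kinds were taken 5 weeks after the oncogenes, 4 weeks after the virus. The oncogenes enter only those hepatocytes that take up the plasmids, and the virus drives miR-22 from a CMV promoter, which is not restricted to hepatocytes. The strain is labelled C57BL/6 in one place and FVB/N in another, and the virus dose in the labels differs from that in the study's methods.

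FOXA proteins open closed chromatin at liver enhancers and are needed for the liver to form. C/EBPα maintains the metabolic program of mature hepatocytes and restrains their proliferation, while C/EBPβ is induced by fasting hormones, inflammation and partial hepatectomy. HNF6 and GATA4 act in liver bud outgrowth and in the early hepatoblast, and PROX1 is needed for hepatoblast migration and represses several nuclear receptor targets.

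The oncogenes were checked first. Akt1 read 105 ± 2.96 CPM (counts normalized to library size after TMM scaling; mean ± SD, n = 3) in healthy livers, 1486 ± 275 in untreated HCC and 858 ± 223 in miR-22-treated HCC, and Nras read 28.6 ± 1.51, 69.9 ± 7.02 and 54.6 ± 1.09 CPM. Mir22hg, the host gene of miR-22, read 61.9 ± 7.79, 18.1 ± 4.21 and 30.8 ± 2.55 CPM, but the mature miRNA is not measured by these libraries. Libraries held 16664659 to 23908392 counts, and the lowest count of any of the 8 factors in a library was 138, for Gata4. The markers of hepatocytes (7 genes) summed to between 130900 and 134700 CPM when healthy, 54700 and 67930 when HCC was untreated and 81220 and 99720 with miR-22. Those of cholangiocytes (6 genes) spanned 29.5 to 42.1, 3340 to 6260 and 1568 to 2714 CPM in the same order, and those of myofibroblasts (5 genes) spanned 64.9 to 75.3, 743 to 867.5 and 440.7 to 631.5 CPM. The part of these changes in the results on the 8 factors was not tested, and in whole liver fewer hepatocytes cannot be told apart from less RNA of a factor per hepatocyte. One library stood apart: the markers of pancreatic acinar cells (6 genes) summed to 377 CPM in replicate 2 of miR-22-treated HCC and to at most 13.5 CPM in any other.

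In healthy livers Cebpa was by far the most abundant of the factors per length of transcript. It reached 240 ± 20.2 CPM per kb (n = 3), followed by Cebpb at 59.2 ± 7.22, Prox1 at 24.8 ± 1.45, Foxa3 at 24.3 ± 6.43, Foxa2 at 14.4 ± 2.40, Foxa1 at 7.07 ± 1.05, Gata4 at 5.89 ± 0.16 and Onecut1 at 5.55 ± 1.98 CPM per kb. Neighbours overlapped in their healthy livers for Prox1 and Foxa3, for Foxa1 and Gata4, and for Gata4 and Onecut1. In miR-22-treated HCC the livers of Cebpa (126.7 to 158 CPM per kb) and Cebpb (80.7 to 130.3 CPM per kb) overlapped as well, while in untreated HCC they did not (83.2 to 118 against 45.4 to 54.6 CPM per kb). The order of Cebpa above Cebpb above all other factors held for the group means in each of the 3 groups.

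**Figure D1:**
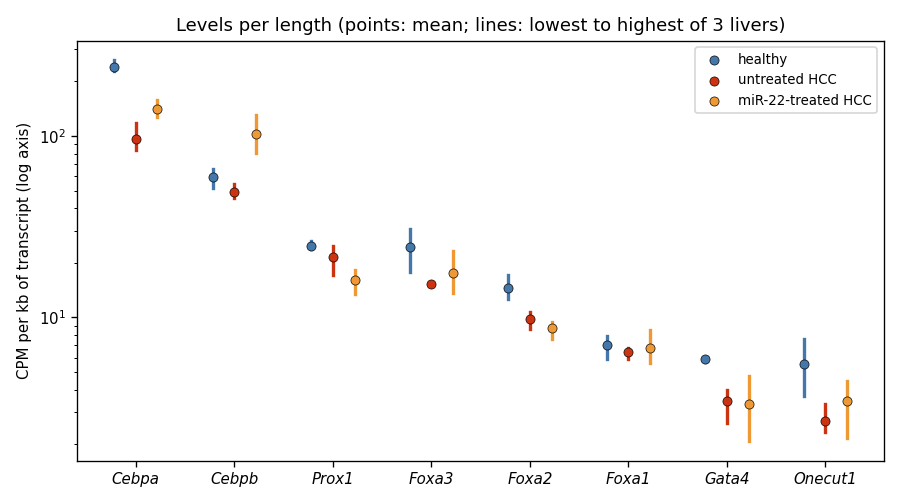
Level of each factor per length, in CPM per kb of its canonical transcript on a log axis, in healthy, untreated HCC and miR-22-treated HCC livers; points are group means and lines run from the lowest to the highest of 3 livers. Cebpa stands highest in every group, and in miR-22-treated HCC its line overlaps that of Cebpb.

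Untreated HCC had lower levels of 4 of the 8 factors than healthy livers, Cebpa, Onecut1, Gata4 and Foxa3, and a higher level of 0, also at an unadjusted p under 0.05 and by DESeq2 and limma. A gene was called at a Benjamini-Hochberg adjusted p under 0.05 in edgeR's quasi-likelihood test with a fold change over 1.5, and in this comparison 40.8% of all tested genes were called, 22.7% higher and 18.1% lower. With miR-22, Cebpb alone was called, higher than in untreated HCC, where 13.8% of all tested genes were called (8.32% higher and 5.47% lower). Compared with healthy livers, miR-22-treated HCC had higher Cebpb and lower Foxa2, Cebpa, Prox1 and Gata4, against 24% of all tested genes called, 16.9% higher and 7.05% lower. By adjusted p alone 5, 2 and 5 of the 8 factors passed, beside 56.2%, 24% and 36.5% of all tested genes. The livers of the 2 groups did not overlap for 5, 2 and 5 factors, beside 65.3%, 39.3% and 48.8% of all tested genes. The median log2 fold change of the 8 factors was -0.61, 0.14 and -0.66 in these 3 comparisons, beside 0.01, 0.00 and 0.02 over all tested genes. The comparisons share groups, so they are not independent of one another. Scaling by total counts alone, which put the median of all genes at 0.43, -0.23 and 0.21, left only Cebpa called in untreated HCC against healthy livers (-0.90), with Onecut1 at -0.62 (adjusted p = 0.0801) and Foxa3 at -0.25 (adjusted p = 0.27).

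**Figure D2:**
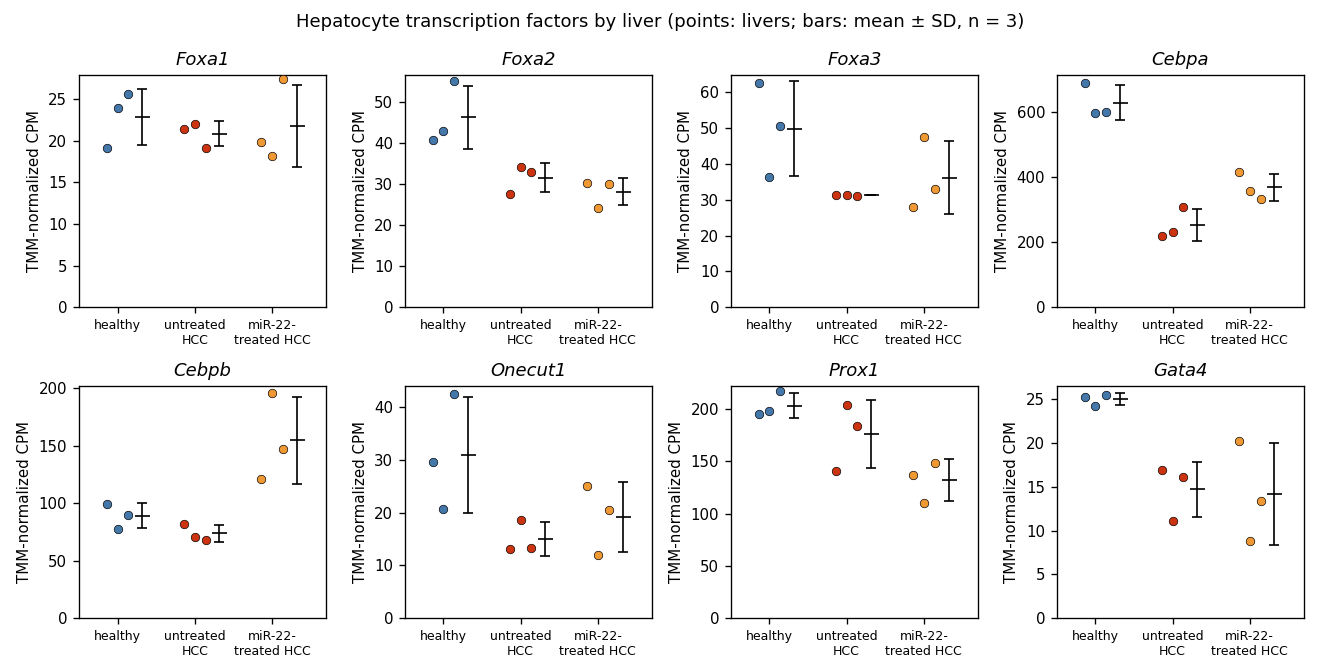
TMM-normalized CPM of the 8 factors in each liver, by group; points are livers and bars give the mean ± SD (n = 3). Cebpa in the 3 healthy livers lies above all HCC livers, Cebpb in the 3 miR-22-treated livers lies above all other livers, and Foxa1 overlaps in all groups.

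**Figure D3:**
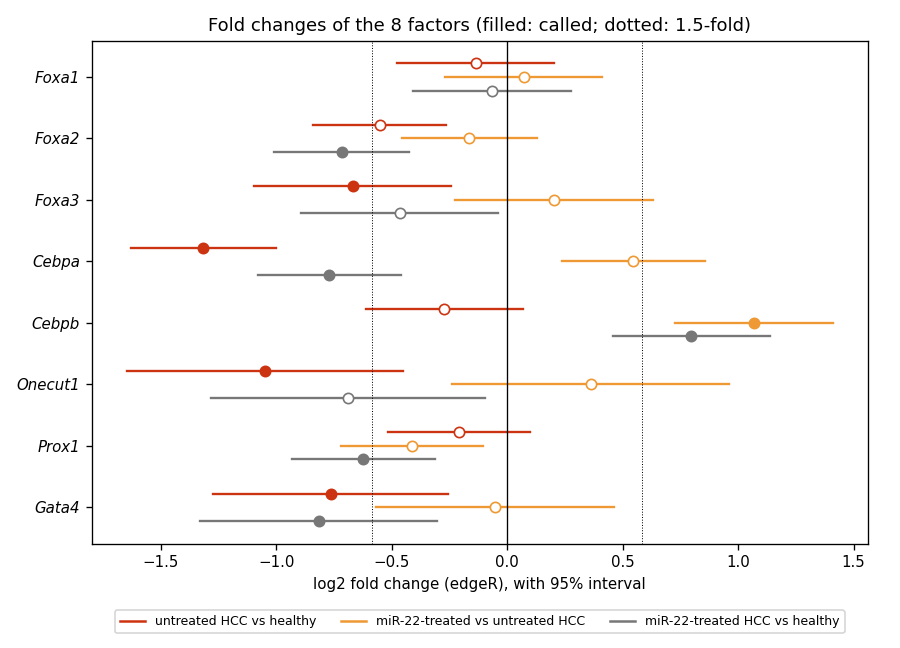
Log2 fold changes of the 8 factors in the 3 comparisons, with 95% intervals from the edgeR fit; filled points passed both thresholds and dotted lines mark a 1.5-fold change. Cebpa has the lowest value in untreated HCC against healthy livers (-1.32) and Cebpb the highest with miR-22 (1.07).

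Of the C/EBP factors, Cebpa was called lower in untreated HCC and Cebpb was called higher with miR-22. Cebpa lies at chr7:34818718-34821353 on the plus strand of GRCm39 in a single exon. Its levels were 691, 598.5 and 600.5 CPM in healthy livers, 219, 231 and 309.6 CPM in untreated HCC, and 415.5, 359.5 and 333 CPM in miR-22-treated HCC. The 3 groups did not overlap: healthy livers were highest, miR-22-treated livers lay between and untreated livers were lowest. Untreated HCC was 2.49-fold lower than healthy livers (log2 fold change -1.32, SE 0.14, adjusted p = 7.44e-06). With miR-22, Cebpa was 1.46-fold higher than in untreated HCC (0.55, SE 0.14, adjusted p = 0.0157; interval 1.18 to 1.81-fold), under the 1.5-fold threshold, and it was called higher when replicate 4 of untreated HCC (0.72, adjusted p = 0.00202) or replicate 4 of miR-22-treated HCC (0.62, adjusted p = 0.0114) was left out. Its adjusted p was above 0.05 without replicate 2 (0.45, adjusted p = 0.0784) or 3 (0.48, adjusted p = 0.0691) of untreated HCC or replicate 2 of miR-22-treated HCC (0.45, adjusted p = 0.0649), and under scaling by total counts (0.31, adjusted p = 0.0787). Cebpa remained 1.71-fold below healthy livers after miR-22 (-0.77, SE 0.14, adjusted p = 0.00121).

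Cebpb, at chr2:167530835-167532338 on the plus strand and also in a single exon, was not called in untreated HCC. Levels were 99.4, 77.8 and 90.2 CPM in healthy livers and 82.2, 70.9 and 68.3 CPM in untreated HCC, which overlap (log2 fold change -0.27, SE 0.16, adjusted p = 0.157; interval 0.655 to 1.05-fold), with a positive sign under scaling by total counts (0.15). In miR-22-treated HCC they were 121, 196 and 147 CPM, and each of these livers exceeded each liver of the other groups. The rise was 2.10-fold over untreated HCC (1.07, SE 0.16, adjusted p = 0.000773; interval 1.66 to 2.66-fold) and 1.74-fold over healthy livers (0.80, SE 0.16, adjusted p = 0.00178).

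Within a library, the ratio of Cebpb to Cebpa counts does not depend on how libraries are scaled. It was 0.144, 0.13 and 0.15 in healthy livers, 0.376, 0.307 and 0.221 in untreated HCC, and 0.292, 0.545 and 0.442 in miR-22-treated HCC. No healthy liver reached the ratio of any HCC liver. The mean log2 ratio rose by 1.06 in untreated HCC and was 1.55 higher in miR-22-treated HCC than in healthy livers (2.09 and 2.93-fold), each with exact permutation p = 0.1, which is the smallest p that 3 against 3 livers allow, two-sided. The HCC groups overlapped, and miR-22-treated livers differed from untreated ones by 0.49 (exact permutation p = 0.3).

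**Figure D4:**
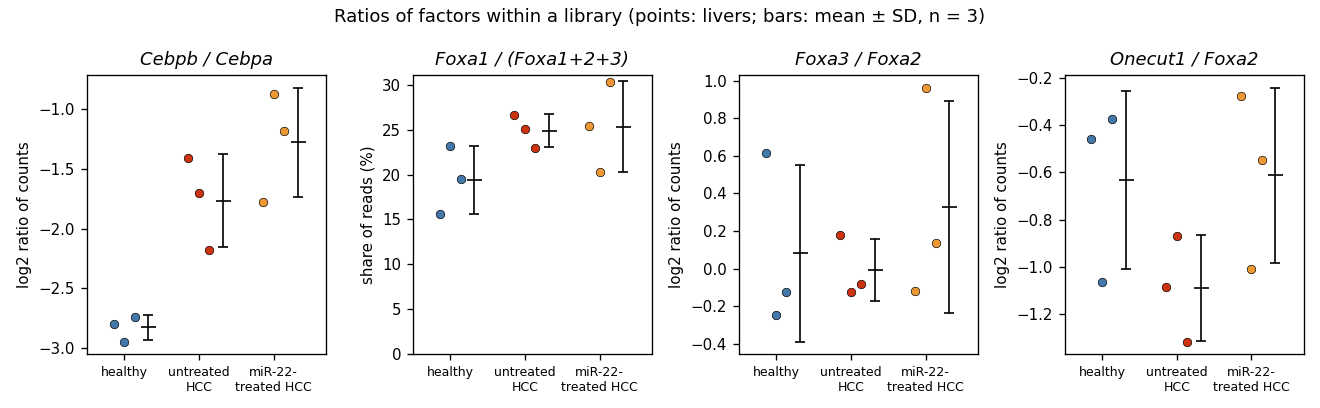
Ratios of factors within each library: log2 of the Cebpb to Cebpa, Foxa3 to Foxa2 and Onecut1 to Foxa2 count ratios, and the Foxa1 share of FOXA counts in percent; points are livers and bars give the mean ± SD (n = 3). The Cebpb to Cebpa ratio is lowest in the 3 healthy livers, while the other ratios overlap between groups.

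RefSeq promoters of the factors were searched for short motifs, and that of Cebpb, the only factor called higher in any comparison, is shown here. In the 250 bases before its start (GRCm38.p6), the core TGACG of the cAMP response element, searched on both strands, occurred 3 times, starting 180, 53 and 7 bases before the start. Of 32851 RefSeq promoters, 17.8% held at least 1 match in the same stretch and 0.688% held 3 or more. These shares were not matched for base composition, and the cut of 3 is the number in Cebpb. The Onecut1 promoter held 1 match, and those of the other factors found held none. A link between matches and levels was not tested. The Cebpa promoter held no match to this core, nor to any of 4 motifs of the factors themselves. On both strands these were the C/EBP motif TTNCNNAA, which 36.8% of all promoters hold. The FOXA motif TGTTTAC was found in 3.17% of them. For the ONECUT motif ATTGAT the share was 6.72%, and the GATA motif AGATAA occurred in 9.99%. The matches are shown with the core in capitals, at chr2:167688724-167688750, chr2:167688851-167688877 and chr2:167688897-167688923 on the plus strand.
Cebpb, 180 bases before the start: gggcgggctggCGTCAcccgcgtccgt
Cebpb, 53 bases before the start: tggccgggcaaTGACGcgcaccgaccg
Cebpb, 7 bases before the start: gggccccagcgTGACGcagcccgttgc

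Of the FOXA factors, Foxa3 was called lower in untreated HCC and Foxa2 in miR-22-treated HCC, each against healthy livers. All 3 values were negative in untreated HCC, and whether the 3 factors differed in their change was tested only through the makeup of their counts, given further on. Foxa1 (chr12:57587414-57593702, minus strand) was not called in any comparison, with 19.1, 23.9 and 25.6 CPM in healthy livers, 21.4, 21.9 and 19.1 CPM in untreated HCC and 19.8, 18.2 and 27.4 CPM in miR-22-treated HCC. Its groups overlapped in each comparison, and its fold changes of 0.91, 1.05 and 0.956 had intervals of 0.719 to 1.15, 0.83 to 1.33 and 0.754 to 1.21. The sign of these small differences turned in all 3 comparisons under scaling by total counts. Changes of 1.5-fold in either direction lie outside each of these intervals.

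Foxa2 (chr2:147884797-147889005, minus strand) was called lower in miR-22-treated HCC than in healthy livers and fell just short of the fold threshold in untreated HCC. It read 40.7, 43.0 and 55.1 CPM in healthy livers, 27.7, 34.1 and 33.0 CPM in untreated HCC and 30.3, 24.3 and 29.9 CPM in miR-22-treated HCC. Every HCC liver was below every healthy liver. Untreated HCC was 1.47-fold lower (log2 fold change -0.55, SE 0.13, adjusted p = 0.00338), and passed the fold threshold when healthy replicate 1 (-0.65) or 2 (-0.61) or untreated replicate 3 (-0.61) or 4 (-0.58) was left out. Under scaling by total counts the value was -0.13 (adjusted p = 0.466). The miR-22-treated livers were 1.64-fold lower than healthy livers (-0.72, SE 0.13, adjusted p = 0.00134; -0.53, adjusted p = 0.0148, under scaling by total counts, and so not called), and miR-22-treated and untreated HCC differed by -0.16 (SE 0.13, adjusted p = 0.417).

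Foxa3 (chr7:18747209-18757471, minus strand), a FOXA factor with a role in glucose homeostasis during fasting, varied widely among healthy livers. These read 62.5, 36.2 and 50.4 CPM, while untreated HCC livers read 31.4, 31.3 and 31.1 CPM and miR-22-treated livers 27.9, 47.4 and 32.9 CPM. All untreated livers lay below the healthy livers, and the treated livers overlapped both groups. Foxa3 fell 1.59-fold in untreated HCC (-0.67, SE 0.20, adjusted p = 0.0111), a call that was lost without healthy replicate 1 (-0.49, adjusted p = 0.0567). Against untreated HCC the treated livers differed by 0.20 (SE 0.20, adjusted p = 0.502), with the opposite sign (-0.04) when replicate 3 of miR-22-treated HCC was left out or when total counts alone set the scale. Against healthy livers they differed by -0.47 (SE 0.20, adjusted p = 0.0832), and Foxa3 was called lower there without healthy replicate 2 (-0.66, adjusted p = 0.0208) or without replicate 3 of miR-22-treated HCC (-0.71, adjusted p = 0.0114).

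The makeup of the FOXA counts did not separate the groups. Foxa1 made up 15.6, 23.2 and 19.5% of the summed FOXA counts in healthy livers, 26.6, 25.1 and 23.0% in untreated HCC and 25.4, 20.2 and 30.3% in miR-22-treated HCC. Its mean share was 5.47 percentage points higher in untreated HCC and 5.90 points higher in miR-22-treated HCC than in healthy livers (exact permutation p = 0.2 for each), and groups overlapped. The Foxa3 to Foxa2 ratio lay between 0.842 and 1.53 when healthy, 0.919 and 1.13 when untreated and 0.922 and 1.95 with miR-22, with exact permutation p = 1.0 for untreated HCC against healthy livers, 0.6 for miR-22-treated against untreated HCC and 0.5 for miR-22-treated HCC against healthy livers.

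Among the FOXA promoters, Foxa1 held a match to the FOXA motif itself (chr12:57546235-57546263, minus strand, GRCm38.p6) and Foxa2 held a match to the ONECUT motif (chr2:148047166-148047193, minus strand). ONECUT proteins are known activators of Foxa2. Other matches to motifs of the set were a C/EBP motif in the Foxa1 promoter, a C/EBP motif in the same Foxa2 promoter and a GATA motif in another of the 3 RefSeq promoters of Foxa2, and the Foxa3 promoter held none. The FOXA match in Foxa1 and the ONECUT match in Foxa2 are shown as examples, with the motif in capitals; that of Foxa1 is on the reverse strand, so it reads GTAAACA.
Foxa1, 141 bases before the start: tatactgctttGTAAACAaagtgagggcc
Foxa2, 213 bases before the start: caaggcccattATTGATtttttttctcc

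Onecut1 (chr9:74769118-74800594, plus strand) was lower in untreated HCC. It read 29.7, 20.6 and 42.5 CPM in healthy livers, 13.0, 18.7 and 13.2 CPM in untreated HCC and 24.99, 12.1 and 20.5 CPM in miR-22-treated HCC. No untreated liver reached a healthy one, and the treated livers spread over both ranges. The fall was 2.07-fold in untreated HCC (-1.05, SE 0.28, adjusted p = 0.00573), with an interval of 0.319 to 0.731-fold. With miR-22 the difference from untreated HCC was 0.36 (SE 0.28, adjusted p = 0.381) and that from healthy livers -0.69 (SE 0.27, adjusted p = 0.067). The highest treated liver was replicate 2, the library with acinar cell markers, and pancreatic cells also express Onecut1; the part of such cells was not tested. Without that library the differences were 0.13 (adjusted p = 0.805) and -0.93 (adjusted p = 0.0301), so that Onecut1 was then called lower than in healthy livers, as it also was without healthy replicate 2 (-0.92, adjusted p = 0.024). With all libraries it was called lower there by DESeq2 (-0.72, adjusted p = 0.0297) and by edgeR without the filter on low counts (-0.68, adjusted p = 4.03e-06).

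The ratio of Onecut1 to Foxa2 counts, which share the direction of their change in HCC, lay between 0.479 and 0.772 when healthy, 0.401 and 0.547 when untreated and 0.496 and 0.826 with miR-22. Groups overlapped in every comparison. Exact permutation p was 0.2 for untreated HCC against healthy livers, 0.2 for miR-22-treated against untreated HCC and 0.9 for miR-22-treated HCC against healthy livers.

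Gata4 (chr14:63436362-63509141, minus strand) was steady in healthy livers at 25.3, 24.3 and 25.6 CPM and fell in HCC. Untreated livers read 16.9, 11.2 and 16.1 CPM and treated livers 20.3, 8.80 and 13.4 CPM. All HCC livers lay below all healthy livers, and the HCC groups overlapped. The fall was 1.70-fold in untreated HCC (-0.76, SE 0.23, adjusted p = 0.014), a call lost without untreated replicate 3 (-0.60, adjusted p = 0.0649), and 1.76-fold in miR-22-treated HCC (-0.82, SE 0.24, adjusted p = 0.0173), a call lost without replicate 3 (-0.57, adjusted p = 0.0448, under the fold threshold) or replicate 4 (-0.78, adjusted p = 0.0504) of that group. Scaling by total counts ended both calls (-0.35, adjusted p = 0.218, and -0.62, adjusted p = 0.0585). Between the HCC groups the difference was -0.05 (SE 0.24, adjusted p = 0.898). Replicate 2 of miR-22-treated HCC, with acinar markers, again read highest, and the part of pancreatic cells was not tested. Without it Gata4 was -1.17 against healthy livers (adjusted p = 0.00123) and -0.40 against untreated HCC (adjusted p = 0.198). Gata4 is also expressed in liver endothelium, whose 7 markers summed to between 410.0 and 505.6 CPM when healthy, 270.1 and 334.5 when untreated and 347.5 and 433 with miR-22, and their part in the fall was not tested.

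Prox1 (chr1:189850232-189904637, minus strand) was lowest in the livers given miR-22. Healthy livers read 195, 198 and 217 CPM, untreated livers 140.4, 204 and 184 CPM, and treated livers 137, 110.1 and 149 CPM. Treated livers were all below healthy livers, while 1 untreated liver, replicate 2, lay within the treated range. Prox1 differed little between untreated HCC and healthy livers (-0.21, SE 0.14, adjusted p = 0.228; 0.22 under scaling by total counts). It was 1.33-fold lower in miR-22-treated than in untreated HCC (-0.41, SE 0.14, adjusted p = 0.0523), which missed the threshold, and 1.54-fold lower than in healthy livers (-0.62, SE 0.14, adjusted p = 0.0046). That last call fell under the fold threshold without replicate 3 of miR-22-treated HCC (-0.51, adjusted p = 0.0209) or under scaling by total counts (-0.43, adjusted p = 0.0489), while that scaling called Prox1 lower with miR-22 than in untreated HCC (-0.65, adjusted p = 0.00868). Lymphatic endothelial cells also express Prox1. Their 4 markers summed to between 37.5 and 50.7 CPM when healthy, 115 and 133 when untreated and 87.9 and 105 with miR-22. Of the 4, 1 was called higher in untreated HCC than in healthy livers, beside 22.7% of all tested genes, and 3 were not called. The part of these cells was not tested.

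Prox1 was the only factor of the 8 whose 3′ UTR held a match to the miR-22-3p seed. A miRNA recognizes its targets mainly through bases 2 to 8, which are in capitals in the RefSeq sequence (chr11:75463772-75463793, plus strand, GRCm38.p6).
miR-22-3p: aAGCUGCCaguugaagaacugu
The match GGCAGCT was searched on the transcript strand in the 3′ UTR of the canonical GENCODE vM39 transcript of each tested gene, and the 3′ UTR of Prox1, 5185 bases long, held 3. They lie at chr1:189854924-189854952, chr1:189854470-189854498 and chr1:189850466-189850494 (GRCm39, minus strand), and the match is in capitals. In the site nearest the end of the transcript the match is followed by an adenine, an arrangement typical of effective targets. In the other sites it is followed by a guanine.
Prox1, from base 476 of the 3′ UTR: ccaatgccctcGGCAGCTgggtagctcac
Prox1, from base 930 of the 3′ UTR: tggagcacgctGGCAGCTgctagtggacc
Prox1, from base 4934 of the 3′ UTR: caatttagtttGGCAGCTactaaatttta

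Of 13559 UTRs searched, 16.9% held the match and 0.62% held 3 or more. Among the 414 within 500 bases of the length of the Prox1 UTR these shares were 38.2% and 3.14%. The median log2 fold change of the 84 genes with 3 or more matches was -0.19 with miR-22 against untreated HCC. Of them 10.7% were called lower and 2.38% higher. The 2287 genes with 1 or more matches had a median of -0.06 there, with 7.61% lower and 5.77% higher. All genes with a UTR searched had a median of -0.02, with 6.06% lower and 7.54% higher. The cut of 3 is the number in Prox1, and these genes were not matched for UTR length. In untreated HCC against healthy livers the 84 genes had a median of 0.16, with 40.5% called higher and 9.52% lower, beside 24.4% and 16.4% of all genes searched. In miR-22-treated HCC against healthy livers, the comparison in which Prox1 was called lower, their median was 0.03, with 23.8% higher and 5.95% lower, beside 18.2% and 6.53%. Prox1 is one of these 84 genes, and its value of -0.41 against untreated HCC was not called. The match describes the sequence, and binding was not measured.

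Libraries were not strand-specific, so reads of a factor and of an antisense gene that overlaps it cannot be told apart by strand. Prox1os, antisense to Prox1, read 5.63 ± 0.45 CPM in healthy livers, 1.58 ± 0.31 in untreated HCC and 2.83 ± 1.02 in miR-22-treated HCC. It fell in untreated HCC (-1.83, SE 0.29, adjusted p = 0.000138), where Prox1 was not called, and stayed lower with miR-22 than in healthy livers (adjusted p = 0.0135). Gm45091, antisense to Cebpa, read 1.20 ± 0.31, 0.144 ± 0.034 and 0.48 ± 0.20 CPM and was called in the direction of Cebpa's differences in each comparison, on 3 to 24 counts per library. Peds1, antisense to Cebpb, was not called in any comparison and read 7.51 ± 1.37, 6.65 ± 0.29 and 5.99 ± 2.02 CPM. Gm20649 and Gm49390, which overlap Onecut1 and Gata4, had at most 1 count in a library.

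Likeness of pattern was measured as the root mean square difference of log2 CPM, each gene centred on its mean over the 9 libraries, among 10601 other tested genes with a mean of at least 5 CPM. Prox1 ranked 29th for Foxa2 and Foxa2 ranked 17th for Prox1 (0.165 on the log2 scale). Foxa2 ranked 18th for Onecut1 (0.34), but Onecut1 ranked below the 100 most alike genes for Foxa2. The difference of 0.34 was about as large as the root mean square of Foxa2 about its own mean (0.3375). Every other pair of factors ranked below the 100 most alike in either direction. Cebpb and Gata4 were the least alike pair (0.831). The 2 genes most like each factor were Trappc2l and Helq for Foxa1 (0.125 and 0.126), Fam174b and Dexi for Foxa2 (0.0656 and 0.134), Tmem42 and Mtrf1l for Foxa3 (0.145 and 0.173), Whamm and Ddt for Cebpa (0.1 and 0.102), Gin1 and Tcim for Cebpb (0.152 and 0.166), Gm16551 and Bahcc1 for Onecut1 (0.23 and 0.244), Zfp446 and Usp54 for Prox1 (0.107 and 0.109), and Smad6 and Dlc1 for Gata4 (0.167 and 0.203). None of these 16 genes belongs to the set of factors.

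Of 23 listed other transcription factors of the hepatocyte network, 19 were tested, and untreated HCC had 4 called higher and 5 called lower than healthy livers, beside 22.7% and 18.1% of all tested genes. Their median log2 fold change was -0.22, beside 0.01 for all tested genes. The lower genes were Klf15, a glucocorticoid-induced factor of amino acid catabolism, which fell from 177 ± 17.6 to 48.4 ± 10.5 CPM (-1.87, SE 0.23, adjusted p = 1.6e-05), Creb3l3 (-0.94), Nr1h4, which encodes the bile acid receptor FXR (-0.91), Hnf4a, the central factor of hepatocyte differentiation (-0.71, from 844 ± 66.7 to 515.5 ± 71.4 CPM), and Hnf4g (-1.43, adjusted p = 0.0477, below 1 CPM). The call of Hnf4g was lost when any library but replicate 4 of untreated HCC was left out (down to -1.06 and adjusted p = 0.164 without untreated replicate 2), and without that replicate 4 it was -2.13. Of the higher genes, Gata6, a paralog of Gata4, rose from 11.7 ± 1.45 to 25.1 ± 4.69 CPM (1.09, SE 0.16, adjusted p = 8.35e-05), where Gata4 fell, and Cebpd, a C/EBP factor of the acute phase, rose from 3.49 ± 1.39 to 10.6 ± 1.68 CPM (1.59, SE 0.25, adjusted p = 0.000164), where Cebpa fell. Atf5 rose by 0.62, a call lost without healthy replicate 2 (0.49) or untreated replicate 4 (0.54). Across the alternative settings of the processing, Creb3l3 reached -0.52, Nr1h4 -0.48 and Hnf4a -0.29, each under the fold threshold, while Klf15 stayed at -1.45 or below.

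With miR-22, 3 of these 19 factors were called higher and 2 lower than in untreated HCC, beside 8.32% and 5.47% of all tested genes. Klf15 returned to 157 ± 57.0 CPM (1.70, SE 0.22, adjusted p = 0.000431), and Nr1h4 (0.60, adjusted p = 0.00114) and Creb3l3 (0.59, adjusted p = 0.00739) rose as well. Both lie close to the fold threshold, under which Nr1h4 fell without untreated replicate 2 (0.52) and Creb3l3 without untreated replicate 2 or 3 or miR-22-treated replicate 3 or 4 (0.51 to 0.57). Gata6 fell (-0.88, adjusted p = 0.00217). Xbp1, a factor of the unfolded protein response, was lower by less than 1.5-fold (-0.37, adjusted p = 0.0161). Against healthy livers only Cebpd (2.07, adjusted p = 5.9e-05) was called higher among the 19, beside 16.9% of all tested genes. Only Tbx3 (-0.65, adjusted p = 0.00354) was called lower, beside 7.05%. The call of Tbx3 was lost without healthy replicate 1 (-0.50). Hnf4a was -0.41 (adjusted p = 0.0225), Nr1h4 -0.30 (adjusted p = 0.0254) and Atf5 0.42 (adjusted p = 0.0254), each under the fold threshold.

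Of 8 listed genes known to act on the factors, untreated HCC had 3 called higher, 2 called lower and 3 not called against healthy livers, where 40.8% of all tested genes were called. With miR-22, 1 was called higher, 1 lower and 6 were not called, beside 13.8% of all tested genes. Trib2, a pseudokinase that directs C/EBPα to degradation through the ligase COP1, rose 5.14-fold, from 2.85 ± 0.24 to 14.7 ± 1.21 CPM (2.36, SE 0.16, adjusted p = 1.51e-07), while Trib1, its paralog with the same activity, fell 1.82-fold, from 75.3 ± 7.13 to 41.3 ± 1.42 CPM (-0.87, SE 0.09, adjusted p = 5.9e-06). Trib3 (0.88) and the GATA cofactor Zfpm1 (0.72) rose, and the deacetylase Sirt1 fell (-0.89). Across the alternative settings Trib1 reached -0.44 and Sirt1 -0.47, each under the fold threshold, while Trib2 stayed at 2.35 or above. With miR-22, Sirt1 rose (0.74, SE 0.14, adjusted p = 0.00295) and Trib2 fell (-0.65, SE 0.14, adjusted p = 0.00593), while Zfpm1 was -0.45 (adjusted p = 0.0136), under the fold threshold. The call of Trib2 was lost without miR-22-treated replicate 2 (-0.57). Against healthy livers, where 24% of all tested genes were called, miR-22-treated HCC had higher Trib2 (1.71) and Trib3 (0.96). Trib1 (-0.77) and Id2 (-0.63) were lower, the last not called without healthy replicate 1 (-0.53) or miR-22-treated replicate 3 (-0.56). These are RNA levels, and C/EBPα protein was not measured here.

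Known targets of the factors were read in 2 lists, of hepatocyte and of acute-phase genes, which were not tested against each other. Of 19 tested hepatocyte target genes, 14 were called lower and 1, the transferrin gene Trf, higher in untreated HCC, beside 18.1% lower and 22.7% higher among all tested genes, and the median was -1.42. The call of Trf was lost without healthy replicate 2 (0.57) or 3 (0.55) or untreated replicate 2 (0.57). This list holds all 7 hepatocyte markers, whose sum was lower in HCC while the sums of cholangiocyte and myofibroblast markers were higher, and their part in these values was not tested. The gluconeogenic enzyme gene Pck1 fell from 2252 ± 78.9 to 371 ± 119 CPM (-2.60, SE 0.22, adjusted p = 1.05e-06), and the urea cycle genes Cps1 and Otc fell by 2.39 and 1.99 on the log2 scale. With miR-22, 13 of the 19 were called higher than in untreated HCC (8.32% of all tested genes) and the other 6 were not called, with a median of 1.12. Pck1 reached 2471 ± 590 CPM (2.73, SE 0.23, adjusted p = 2.02e-05), G6pc rose 6.72-fold (2.75, SE 0.32, adjusted p = 0.000221), and the glycogen synthase gene Gys2 and the tryptophan dioxygenase gene Tdo2 rose by 1.57 and 1.37. Against healthy livers, 6 were called lower, with Cps1 at -1.17, Ass1 at -0.97 and Otc at -0.80 among them. Igfbp1 was the 1 called higher (1.38), a call lost without healthy replicate 2 (1.16, adjusted p = 0.0503). Of all tested genes, 7.05% were called lower and 16.9% higher in that comparison.

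Of 12 acute-phase genes, many of them C/EBPβ targets, 6 were higher and 3 lower in untreated HCC, with a median of 1.09, beside 22.7% of all tested genes higher and 18.1% lower. Lcn2, which encodes lipocalin 2, rose from 5.00 ± 1.93 to 1750.0 ± 439 CPM (8.46, SE 0.35, adjusted p = 6.56e-09), and Il1rn, Orm2 and the haptoglobin gene Hp rose by 3.38, 2.87 and 2.22. Crp (-0.68), Fgb (-0.69) and Fgg (-0.64) fell, and the call of Fgg was lost without healthy replicate 1 or untreated replicate 2 or 3 (-0.53 to -0.56). With miR-22, 1 acute-phase gene of the 12 was called higher, Fgg (0.60, adjusted p = 0.0331), and 1 lower, Lcn2 (-0.83, adjusted p = 0.0308), with a median of 0.39, where 13.8% of all tested genes were called. Both calls were lost when replicate 2 or 3 of either HCC group was left out, with adjusted p up to 0.131 for Fgg and 0.122 for Lcn2. Crp (0.58, adjusted p = 0.00118), Fgb (0.57, adjusted p = 0.032) and Orm2 (-0.55, adjusted p = 0.00447) differed by less than 1.5-fold. Against healthy livers, 6 of the 12 were called higher, beside 16.9% of all tested genes, and the other 6 were not called. The higher genes included Saa1 (2.47) and Saa2 (2.60). Markers of neutrophils, which also express Lcn2 and Il1rn, summed to between 1.70 and 4.53 CPM when healthy, 17.4 and 22.7 when untreated and 16.6 and 24.3 with miR-22 (5 genes, with Ly6g at 0 in all healthy and untreated livers), and their part was not tested.

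Fetal liver genes, which hepatocyte factors silence or sustain at different stages, were all higher in untreated HCC (7 of 7, beside 22.7% of all tested genes), including Afp (6.65), Gpc3 (6.55) and H19 (7.18). With miR-22, 5 of them, beside 5.47% of all tested genes, were called lower than in untreated HCC (Afp -0.88, Gpc3 -0.68, Cd24a -1.04, Dlk1 -2.64 and Bex1 -1.11). All 7 were still called higher than in healthy livers, beside 16.9% of all tested genes. Of the 5, Cd24a and Dlk1 stayed called whichever library was left out, with Dlk1 at -1.69 (adjusted p = 0.0493) without untreated replicate 3. The call of Gpc3 was lost without untreated replicate 2 or miR-22-treated replicate 3 (adjusted p up to 0.06), that of Afp without untreated replicate 2 or 3 or miR-22-treated replicate 3 (up to 0.13), and that of Bex1 without replicate 2 or 3 of either HCC group (up to 0.0851).

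**Figure D5:**
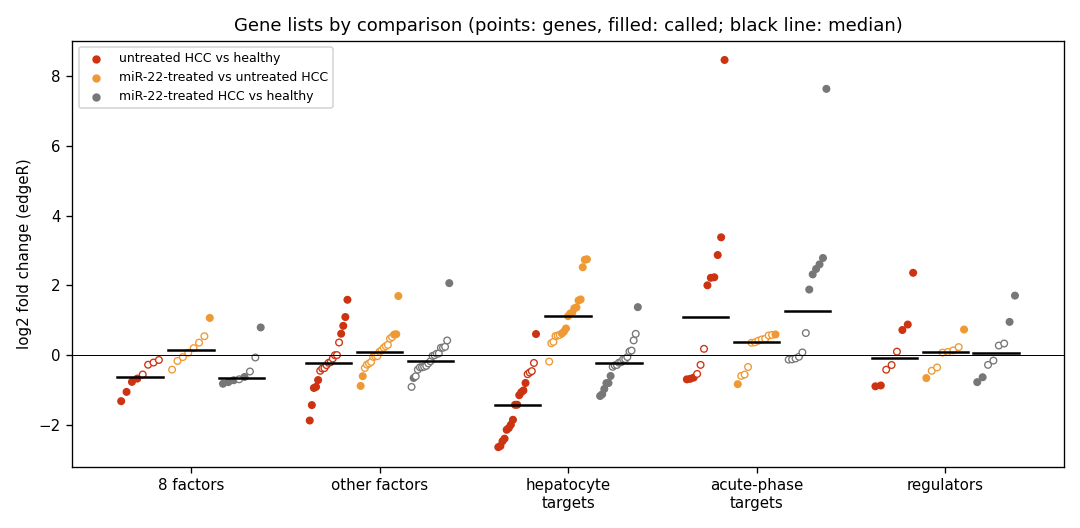
Log2 fold changes of the tested genes of 5 lists (the 8 factors, other hepatocyte transcription factors, hepatocyte targets, acute-phase targets and regulators) in the 3 comparisons; each point is a gene, filled where called, and black lines are list medians. Hepatocyte targets have a median of -1.42 in untreated HCC against healthy livers and 1.12 with miR-22, while the 8 factors have medians of -0.61 and 0.14.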

How the data were processed

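Whole-liver RNA of 9 mice was sequenced as non-directional paired reads. Per the study's methods, FastQC 0.11.7 was run on the reads, Salmon gave estimates against GRCm39, and tximport collapsed transcripts to genes. The authors deposited these estimated counts as whole numbers, neither normalized nor filtered, and a second table of normalized values was not used. The test was edgeR's quasi-likelihood F test (edgeR 4.0.16 under R 4.3.3), two-sided, after TMM scaling and filterByExpr, with 1 fit of all 3 groups, no covariates and Benjamini-Hochberg adjustment over 15717 genes. Fold intervals are 95% intervals of that fit. Ratios were compared by exact permutation tests over libraries. Alternatives were DESeq2 1.42.0, other scalings and filters, a 2-group fit, a replicate block, no fold threshold, glmTreat, limma 3.58.1 and leaving out each library. Replicates of a group differed by more than sampling noise. Nothing says how the livers were batched, so p-values measure the spread between these livers. On simulated counts the fits recovered most of the large changes put in, with no errors of sign. The simulation changed few genes, as many up as down. It therefore cannot speak to changes near 1.5-fold or to the scaling of these data.

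The factors and lists were chosen with earlier results of these data known. Named were the 8 factors, overlapping genes, checks of the labels, up to 6 other factors, 3 regulators, 4 targets of each kind and 3 fetal genes with the smallest p per comparison, and the 2 genes most like each factor. Genes that complete a count of 5 or fewer were added after their values were seen. Coordinates and transcript lengths are from GENCODE vM39 (GRCm39), matched by gene ID, and promoters and miR-22-3p from RefSeq (GRCm38.p6), where 7 of the 8 factors matched, Gata4 being the other. The symbol Ddit3 had 2 gene IDs and was left out. Some genes that the rule names are not reported here.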

Additional observations from a re-analysis of the deposited data

How the results depend on the processing

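Scaling by total counts alone left 1 factor called in untreated HCC against healthy livers in place of 4, called 2 with miR-22 against untreated HCC (Cebpb higher and Prox1 lower) in place of 1, and 2 against healthy livers in place of 5. It turned the sign of Foxa1 (0.29, -0.16 and 0.13 in the 3 comparisons), of Cebpb (0.15) and Prox1 (0.22) in untreated HCC against healthy livers and of Foxa3 (-0.042) with miR-22, and moved the share of higher genes among all called genes from 55.7, 60.4 and 70.6% to 80.0, 27.8 and 85.2%. A test against a 1.5-fold change (glmTreat) called 1 factor, Cebpa, in untreated HCC, and 0 against healthy livers after miR-22 (edgeR's F test gave 7 of the 8 an unadjusted p under 0.05 there). Without the fold threshold 2 factors, Cebpb and Cebpa, were called with miR-22. For all genes, that count went from 2167 to 3777 without the fold threshold, to 468 with glmTreat and to 1433 without miR-22-treated replicate 3, and against healthy livers from 3772 to 5732 and 2010.

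Leaving out each library gave 4 to 5 called factors in untreated HCC against healthy livers, 1 to 2 with miR-22 and 4 to 7 in miR-22-treated HCC against healthy livers. It turned the sign only of uncalled values: between miR-22-treated and untreated HCC those of Gata4 (-0.40 to 0.19), Foxa3 (-0.039 to 0.35) and Foxa1 (-0.13 to 0.18), and against healthy livers that of Foxa1 (-0.27 to 0.048). Differences that turned among ratios were the Foxa1 share with miR-22 (-2.08 to 2.97 points), the log2 Foxa3 to Foxa2 ratio in untreated (-0.25 to 0.18) and miR-22-treated HCC (-0.070 to 0.52) against healthy livers, and the log2 Onecut1 to Foxa2 ratio in the latter (-0.20 to 0.22).

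Replicate numbers gave no pairing of livers (correlations of deviations of -0.121, -0.131 and -0.235 between untreated and miR-22-treated HCC). With the replicate block, 3 factors were called in untreated HCC (Foxa2 gained, adjusted p = 0.00827, and Foxa3 and Onecut1 lost, adjusted p = 0.0685 and 0.0502), and Cebpa with miR-22 had adjusted p = 0.0566. The cause of these changes was not tested.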
